A study of Homo sapiens with 4 samples.

Results

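Apolipoproteins are the protein part of the particles that carry cholesterol and triglycerides in blood, and the liver makes most of them. The 10 genes described here are APOA1, APOA4, APOA5 and APOC3, which form a cluster on chromosome 11, APOE, APOC1 and APOC2, which form a cluster on chromosome 19, and the single genes APOB, APOH and APOA2. A loop was assigned to a gene when an anchor overlapped the gene body or 20 kb on either side of it. By this rule 58 of the 66417 DNA loops of mock-treated cells and 16 of the 18778 loops of PDS-treated cells lay at the 10 genes. The rule does not use the counts of PETs, but the genes were chosen with earlier results of these data known.

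The loops come from POLR2A HiChIP-seq in HepG2, a human hepatocellular carcinoma cell line. In this assay nearby pieces of chromatin are ligated and those bound by POLR2A, the largest subunit of RNA polymerase II (RNAPII), are pulled down, so that a paired-end tag (PET) marks fragments that were neighbours in the nucleus. Cells were mock-treated, or treated for 24 h with 20 µM pyridostatin (PDS), a small molecule that binds G-quadruplex (G4) DNA. Each condition had 2 replicates, 4 libraries in all, and the authors deposited 1 pooled loop list per condition with the count of PETs in each loop. No spread between replicates can therefore be given, no test between conditions was possible, and the 95% intervals below cover counting error only. A listed loop had at least 3 PETs, so a loop that is not listed may have up to 2. The listed loops hold 254647 PETs in the mock list and 67001 in the PDS list, the PDS/mock ratio of loop numbers over the whole genome was 0.283, and sequencing depth was not given with the lists.

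Several apolipoproteins act on lipoprotein lipase, the enzyme that clears triglycerides from blood: APOC2 is its activator, APOC3 slows clearance and APOA5 speeds it. APOA1 and APOA2 are the main proteins of high-density lipoprotein, APOB is the structural protein of very-low-density and low-density lipoprotein, and APOE is a ligand of the LDL receptor. RNAPII loops can join promoters to enhancers or to other promoters, and others have no promoter in either anchor. In clusters of this kind neighbouring genes are known to share enhancers. As a check of the cell type, all 10 hepatocyte genes examined, ALB among them, had mock loops (median 13 per gene, range 2 to 45). Of 11 genes of other cell types, 9 also had them (median 7, range 0 to 16), so a count of loops does not by itself mark a hepatocyte gene.

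The sequences that bear on the results are shown first. PDS binds G4 structures, and both strands of GRCh38 were searched for 4 runs of G, each of 3 or more, separated by 1 to 7 other bases. The runs of G are in capitals, each sequence reads 5′ to 3′ on its G-rich strand, and a match is a pattern of letters, not a measured structure. At the chromosome 19 cluster, the same 25 letters stand in the APOC1 anchor and in the anchor of its pseudogene APOC1P1, and a similar motif stands in the APOC1P1 anchor and in the next anchor downstream. These 4 are shown because loops joined APOC1, APOC1P1 and that downstream anchor to one another.
APOC1 anchor, chr19:44914791-44914815, plus strand, in an APOC1 intron: GGGagatgaGGGGatcgtGGGaGGG
APOC1P1 anchor, chr19:44926883-44926907, plus strand, in an APOC1P1 exon: GGGagatgaGGGGatcgtGGGaGGG
APOC1P1 anchor, chr19:44924146-44924170, plus strand, between genes: GGGaggaGGGcgtaGGGattcGGGG
Downstream anchor, chr19:44935754-44935779, plus strand, between genes: GGGaggaGGGtgcaGGGtttcGGGGG

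At APOB, the motifs shown are those in 3 anchors that carried the loops with most PETs, inside the gene and at 2 places upstream of it. The upstream anchor holds 3 motifs, of which 1 is shown.
APOB intron, chr2:21037307-21037327, plus strand: GGGtacttGGGaGGGatGGGG
Upstream anchor, chr2:21069496-21069518, minus strand, between genes: GGGGtaGGGGGGtGGGGGGaGGG
Far upstream anchor, chr2:21102995-21103020, plus strand, between protein-coding genes: GGGtacaGGGttGGGGGtgtggtGGG

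Promoter sequences were taken from RefSeq (GRCh38.p14), where 7 of the 10 genes had an entry: APOA5, APOA4, APOE, APOC1, APOC2, APOH and APOA2. The 250 bases before the start site were searched for the G4 pattern, for TATAAA on the coding strand, and for CAAAGTCC and GTTAAT on both strands, short forms of sites known for the liver factors HNF4 and HNF1. Of the 35116 promoters in the table, 23.5% held the G4 pattern, 6.80% TATAAA, 1.02% CAAAGTCC and 6.23% GTTAAT. The promoters of APOE, APOH and APOA2 are shown in full, since they differ in G content and their anchors differ in loops. Capitals mark a match.
APOE, chr19:44905546-44905795, plus strand: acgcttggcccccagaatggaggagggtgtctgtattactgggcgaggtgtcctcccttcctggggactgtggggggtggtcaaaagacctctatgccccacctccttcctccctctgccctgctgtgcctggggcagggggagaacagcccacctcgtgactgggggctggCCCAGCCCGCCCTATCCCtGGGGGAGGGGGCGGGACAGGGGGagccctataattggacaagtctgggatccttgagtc
APOH, chr17:66229416-66229665, minus strand: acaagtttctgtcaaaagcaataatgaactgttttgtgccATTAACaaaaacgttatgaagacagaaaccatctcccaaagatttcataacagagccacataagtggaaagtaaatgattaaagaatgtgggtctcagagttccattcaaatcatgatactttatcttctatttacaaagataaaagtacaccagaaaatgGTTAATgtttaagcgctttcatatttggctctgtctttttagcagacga
APOA2, chr1:161223629-161223878, minus strand: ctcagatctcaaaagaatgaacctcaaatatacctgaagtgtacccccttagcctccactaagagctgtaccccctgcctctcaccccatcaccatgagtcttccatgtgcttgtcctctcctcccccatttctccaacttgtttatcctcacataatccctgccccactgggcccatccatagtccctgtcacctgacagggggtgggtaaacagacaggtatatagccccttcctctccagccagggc
The APOE promoter, with 64.8% G and C, held G4 motifs that began at positions -78 (minus strand) and -59 (plus strand) from the start site. The APOH promoter, with 33.2% G and C, held GTTAAT at -210 (minus strand) and -49 (plus strand). The APOA2 promoter held no match, and neither did those of APOA5 and APOA4. APOC1 had a G4 motif at -167 from its RefSeq start site, and APOC2 had one at -135 (minus strand), with CAAAGTCC at -92 (minus strand) and TATAAA at -30. Among the 7 promoters, the 3 of the chromosome 19 genes held the G4 pattern. APOA1, APOC3 and APOB had no entry and were not part of this search. In the search of the anchors, a motif at chr11:116837802-116837827 lay 0.18 kb upstream of APOA1, within 250 bases of its start site. The pattern was thus not limited to the chromosome 19 genes.

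Loops were unevenly spread over the 5 loci. APOB had 31 mock loops with 142 PETs, more than the other 4 loci together. APOA2 had 10 mock loops with 33 PETs, and APOH had 8 with 32 PETs. The chromosome 11 cluster had 5 mock loops with 16 PETs, and the chromosome 19 cluster had 4 with 16 PETs. After PDS treatment APOB had 10 loops with 40 PETs, the chromosome 19 cluster 3 with 10 PETs, APOH 1 with 5 PETs, and APOA2 and the chromosome 11 cluster 1 each with 3 PETs. The order of the loci by loop number thus differed between the lists, with the chromosome 19 cluster last in the mock list and second in the PDS list, on counts of 4 and 3 loops.

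**Figure D1:**
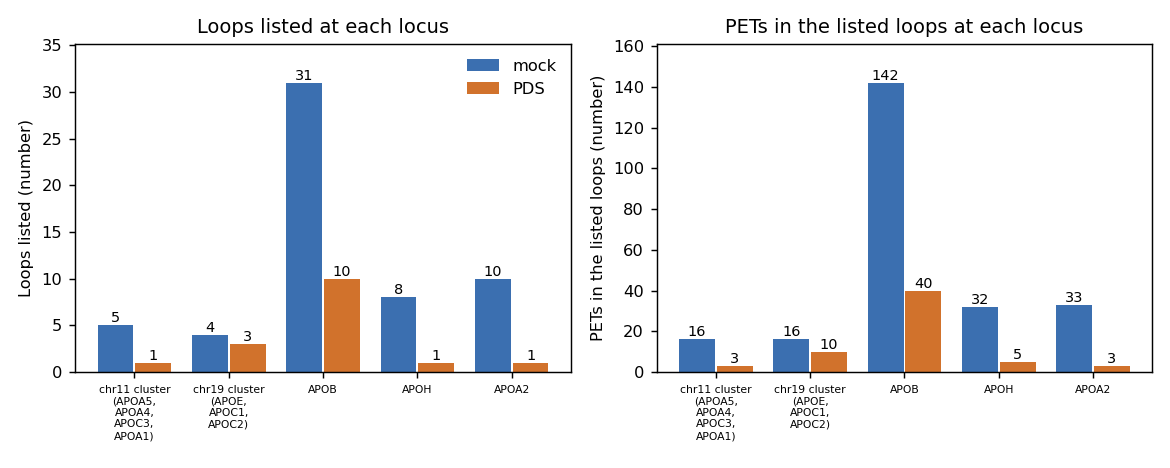
Number of listed loops (left) and of PETs in them (right) at each apolipoprotein locus, with mock-treated cells in blue and PDS-treated cells in orange, from 1 pooled list per condition. APOB has the tallest bars in both lists, and the pair of bars is closest in height at the chromosome 19 cluster, with 4 and 3 loops.

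Among 19970 protein-coding genes, the median was 4 mock loops per gene with the same window, and 81.1% had at least 1. APOB stood high in this range, as 1.32% of genes had at least as many mock loops. The share was 17.6% for APOA2 and 24.9% for APOH. By number of loops the cluster genes were near the middle of the range: 43.0% of genes had at least as many loops as APOC3 or APOA1, 50.9% as many as APOA5, APOA4 or APOC2, and 60.4% as many as APOE or APOC1. Windows of neighbouring genes in a cluster overlap, so these genes share loops. Per 100 kb of each gene's own window, APOB had 37.5 mock loops, APOA2 24.2 and APOH 9.47, against a median of 4.50 over protein-coding genes. On this scale the cluster genes stood higher than by number, with 11.9 at APOA1, 11.5 at APOC3, 9.39 at APOA4, 9.29 at APOA5, 9.19 at APOC2, 6.88 at APOE and 6.65 at APOC1. The share of genes with at least as many per 100 kb ran from 17.8% for APOA1 to 37.2% for APOC1 among them, and it was 0.951% for APOB, 3.68% for APOA2 and 25.2% for APOH. A large annotated gene body did not go with many loops in every case. APOH (44.5 kb) is as long as APOB (42.6 kb) and had 8 loops where APOB had 31. The annotated APOH body includes a stretch upstream of its canonical start site, so its canonical transcript is shorter than this.

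Over all 10 genes, the PDS/mock ratio was 0.276 (95% interval 0.160 to 0.477) by loops and 0.255 (0.193 to 0.338) by PETs. Outside these loci the ratio by loops was 0.283, and the ratio of the ratios was 0.976 (95% exact interval 0.523 to 1.72). The 10 genes as a group thus had no difference from the rest of the genome that these counts could detect. All 10 had at least 3 mock loops. In 8 of the 10 the mock number was at least 2 times the PDS number, against 91.8% of the 12069 protein-coding genes with at least 3 mock loops. The exceptions were APOE and APOC1, each with 3 mock and 3 PDS loops. These are the same loops for both genes, so the exceptions are not independent. APOA5 was the 1 gene of the 10 with no PDS loop in its window, against 24.8% of the same background genes. Neither share sets the members apart from that background.

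By locus, the ratio by loops was 0.323 (0.160 to 0.649) at APOB, 0.125 (0.0203 to 0.770) at APOH, 0.1 (0.0165 to 0.606) at APOA2, 0.2 (0.0310 to 1.29) at the chromosome 11 cluster and 0.750 (0.188 to 2.99) at the chromosome 19 cluster. The intervals at the 3 single genes lie below 1, those at both clusters include 1, and all 5 include the ratio of all loops. The single genes together had 49 mock and 12 PDS loops (0.245, 0.132 to 0.456), and both clusters together had 9 and 4 (0.444, 0.145 to 1.36). The ratio of the clusters over that of the single genes was 1.81 (95% exact interval 0.346 to 7.94).
Taken apart, the chromosome 11 cluster gave 0.817 times the ratio of the single genes (0.0160 to 8.39), and the chromosome 19 cluster 3.06 times (0.388 to 20.5). In PETs the chromosome 19 value was 2.70 (1.02 to 6.76), an interval just above 1. PETs of 1 loop are not independent and the loops compared are 3 and 4. Without the loop between APOC1 and its pseudogene the value in PETs was 2.35 (0.677 to 7.33). Without APOB, the other single genes had 18 mock and 2 PDS loops, a ratio of 0.111 (0.0287 to 0.431). With a window of 50 kb in place of 20 kb, the chromosome 19 value by loops was 4.06 (1.05 to 15.3), which leaves out 1. With the 20 kb window no difference between clusters and single genes was detectable by loops, and the intervals are wide enough to hold large differences in either direction.

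**Figure D2:**
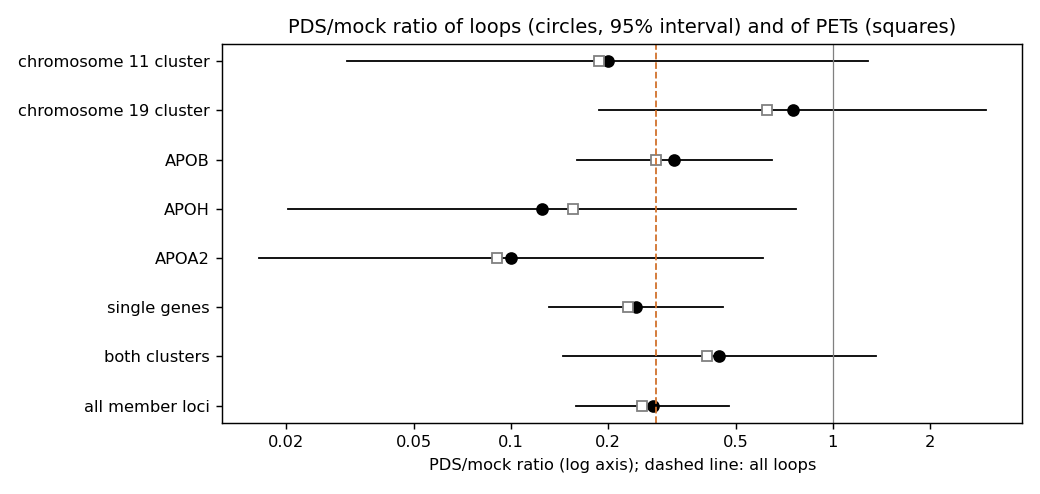
PDS/mock ratio of loop numbers (filled circles, with 95% counting intervals as lines) and of PETs (open squares) for each locus and for groups of loci, on a log axis. The dashed line is the ratio of all loops, 0.283, which lies inside every interval, and the grey line marks 1.

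APOB (ENSG00000084674) lies on the minus strand of chromosome 2 at 21001429 to 21044073 (GRCh38), and its loops extended far on both sides. The longest joined the 3′ part of the gene to a downstream anchor at 20456398 to 20459710 over 548 kb, with 4 mock PETs. On the upstream side the longest spanned 304 kb, with 3 mock PETs. Neither was listed after PDS. The anchor in the first part of the gene body, at 21030459 to 21039599, and the upstream anchor at 21061969 to 21076253, centred at -25.04 kb from the start site (negative values are upstream), were joined by 9 PETs in mock-treated cells and by no listed loop after PDS. The other loop with 9 mock PETs joined the 3′ part of the gene, at 20996647 to 21014759, to a far upstream anchor at 21092795 to 21107878, over 94.6 kb, and it was not listed after PDS either. Another strong loop, with 8 mock PETs, joined the upstream anchor to 21147796 to 21159164 over 84.4 kb and was absent from the PDS list. Among all mock loops with 9 PETs, 217 of 453 (47.9%) were also listed after PDS, and on chromosome 2 the count was 33 of 76. Thus an unlisted loop of this strength was not unusual.

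Of the 31 mock loops at APOB, 6 were also listed after PDS. The loop from the 3′ part of APOB to the region downstream of the gene, 20971983 to 20987770, had 5 PETs in mock-treated cells and 8 after PDS, the highest PDS count at any of the 5 loci. A loop inside the gene, from 21024394 to 21028198 to the anchor at 21030459, had 7 and 4 PETs. Upstream of the start site, the anchor at 21061969 kept a listed loop to 21092795 (8 and 4 PETs), to 21053747 to 21058123 (6 and 3 PETs) and to 21046544 to 21052972 (4 and 5 PETs). The sixth, from the first part of the gene to 21116821 to 21120027, had 4 and 3 PETs over 83.4 kb and was the longest PDS loop at APOB. From the share of all mock loops listed after PDS at the same number of mock PETs, 5.14 shared loops would be expected for APOB, so 6 was close to that number. The odds of being in the PDS list as well were, for mock loops at APOB, 1.93 times those outside the loci, with a 95% exact interval of 0.649 to 4.83.

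The APOB promoter itself carried few PETs. The promoter anchor at 21040818 to 21045025 had 3 mock loops with 10 PETs, to 21046544 (4 PETs), to the upstream anchor at 21061969 (3 PETs) and to the far upstream anchor at 21092795 (3 PETs). None of the 3 was listed after PDS, where the promoter anchor had 1 loop of 3 PETs, to the adjoining part of the gene. The upstream anchor at 21061969 had 10 loops (51 PETs) in mock-treated cells and 4 (16 PETs) after PDS, and the 3′ anchor of the gene had 7 (33 PETs) and 2 (11 PETs). These 2 anchors are wider, at 14.3 and 18.1 kb against 4.21 kb for the promoter anchor. The counts are not scaled by width, so they do not rank the promoter against the other anchors. Of the 31 mock loops at APOB, 23 had no anchor on a protein-coding promoter, 3 used the APOB promoter and 5 used another promoter only. Those 5 ended at TDRD15 or LDAH, neighbouring genes that were named after their values were seen.
Sorted by position, the loops between the gene and its upstream side numbered 11 in the mock list (50 PETs) and 1 in the PDS list (3 PETs). With both anchors on the gene there were 3 and 3 loops (18 and 10 PETs), and with both anchors upstream 8 and 5 loops (43 and 19 PETs). From the downstream side to the gene there were 4 and 1 loops (15 and 8 PETs), and 5 mock loops (16 PETs) and 0 PDS loops lay downstream only or passed over the gene. These classes were set after the loops had been seen, so they are given as a description.

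**Figure D3:**
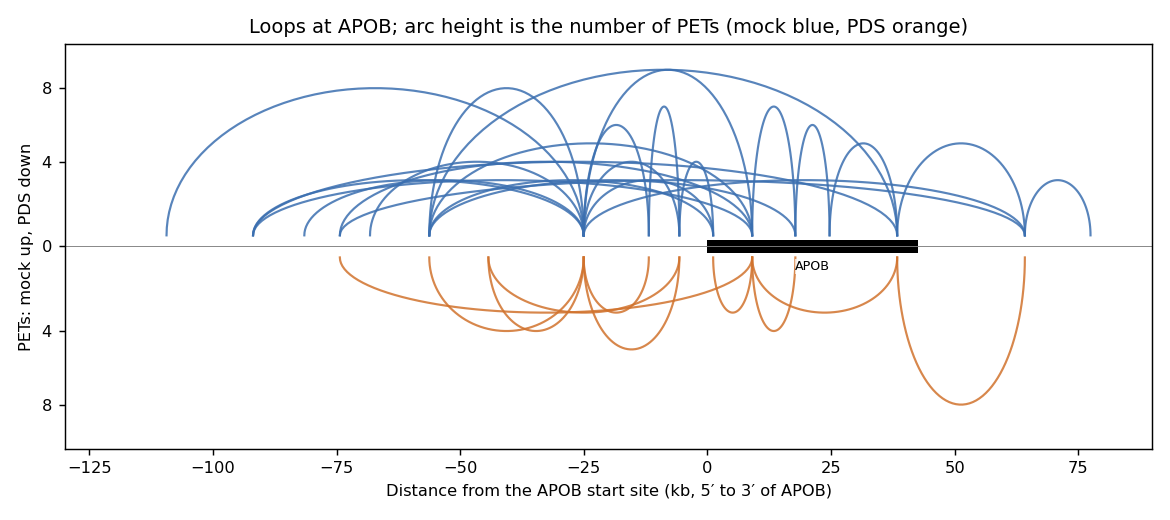
Loops at APOB as arcs between anchor midpoints, with arc height giving the PETs (mock above the line in blue, PDS below in orange) and the x axis the distance in kb from the start site in the direction of transcription. In the mock list many arcs join the gene (black bar) to the upstream side, among them the pair with 9 PETs, and 1 PDS arc does so. Another 6 mock loops that reach past the plotted range of -130 to 90 kb are not drawn.

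Mock loops at APOB were stronger and longer than most. Of the 31, 11 had at least 5 PETs, and the odds of this were 2.44 times those of loops outside the 5 loci (95% exact interval 1.05 to 5.34). Their anchors were also wider, with a median summed width of 21.7 kb against 15.4 kb over all mock loops. The odds are not adjusted for width, and its part in them was not tested. Measured between anchor midpoints, the APOB loops of mock-treated cells spanned a median of 65.3 kb (95% interval from binomial ranks 26.2 to 94.6 kb), against 17.4 kb for all mock loops and 18.2 kb for the other mock loops of chromosome 2. After PDS treatment it was 22.6 kb at APOB (8.73 to 38.6 kb) and 17.2 kb over all loops.
The distance classes below were chosen after these values were seen. Over 50 kb, APOB had 18 mock loops and 1 PDS loop, a ratio of 0.0556 (0.00944 to 0.327), and up to 50 kb it had 13 and 9, a ratio of 0.692 (0.303 to 1.58). Outside the loci the same ratios were 0.266 and 0.288. The odds of a loop over 50 kb at APOB were 0.0802 times as high in the PDS list as in the mock list (95% exact interval 0.00174 to 0.742). At 20 kb the value was 0.348 (0.0624 to 1.998) and at 100 kb it was 0 (0 to 1.41), and both of these intervals include 1. Against loops outside the loci of the same class, however, the APOB ratio over 50 kb was 0.209 times as high with an interval of 0.00502 to 1.32, which includes 1. The strength of these loops also differed: both classes held 71 mock PETs, but 8 of the 13 shorter loops and 3 of the 18 longer ones had at least 5 PETs. At the mock PETs of each class, 2.19 shared loops would be expected for the longer ones and 1 was listed, and 2.94 for the shorter ones and 5 were listed.
Across all 10 genes, 15 of 58 mock loops spanned over 100 kb (25.9%, Wilson interval 16.3 to 38.4%), against 12.8% of loops outside. In the PDS list 0 of 16 did, with an upper Wilson limit of 19.4%. The interval of the PDS list thus holds the share of all PDS loops, 12.2%. Between the lists, the odds of a loop over 100 kb at the 10 genes were 0 times as high after PDS (95% exact interval 0 to 0.871). Over 50 kb the value was 0.164 (0.0170 to 0.832) and over 20 kb 0.415 (0.115 to 1.51). Against loops outside the loci, the PDS/mock ratio over 50 kb was 0.279 times as high (0.0321 to 1.11), which includes 1.

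**Figure D4:**
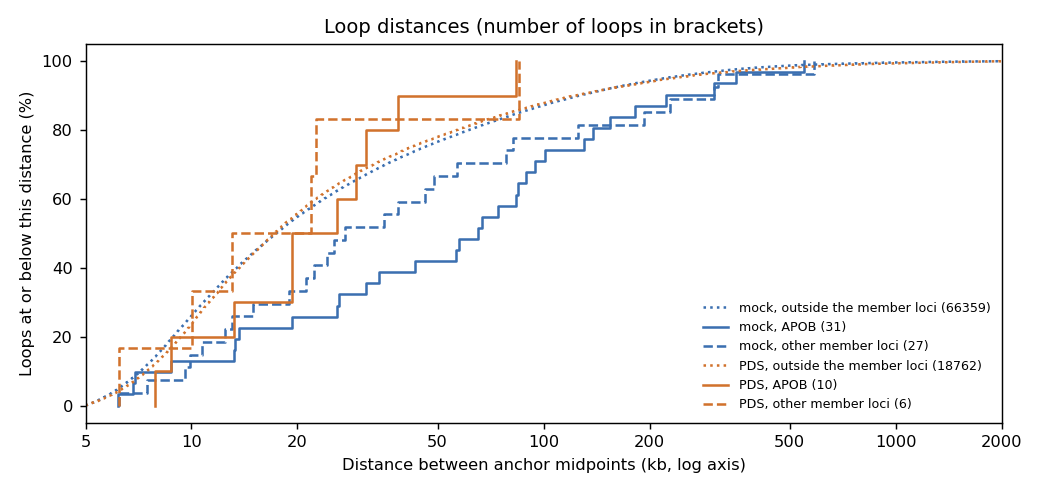
Cumulative share of loops (y axis, percent) by distance between anchor midpoints (x axis, kb, log scale) for APOB, the other member loci and all loops outside them, with mock in blue and PDS in orange. The APOB mock curve lies to the right of the curve of other mock loops, with medians of 65.3 and 17.4 kb, and the curves of loops outside the loci nearly coincide.

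APOH (ENSG00000091583) encodes beta-2-glycoprotein I, a plasma protein that binds phospholipids. It lies on the minus strand of chromosome 17 at 66212033 to 66256525. The anchor with its canonical promoter, at 66226414 to 66234129, had 5 mock loops with 19 PETs. The strongest reached the adjoining anchor, at 66234692 to 66240759, with 6 PETs. That anchor is centred at -8.31 kb, upstream of the canonical start site at 66229415. It lies in the gene only by the full annotated span. The next, with 4 PETs, reached the 3′ part of the gene at 66216259 to 66219341. The others had 3 PETs each, and 1 of them ended in PRKCA over 313 kb. A further loop, from 66234692 to 66246484, also had 6 PETs and had both anchors upstream of the canonical start site. None of the 8 mock loops at APOH was in the PDS list, where 1.00 would be expected at the same mock PETs. The single PDS loop of the window, with 5 PETs, joined a pair of CEP112 promoter anchors downstream of APOH and did not touch the gene. By the full annotated span, APOH itself thus had 7 mock loops on its body and 0 after PDS treatment.

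APOA2 (ENSG00000158874) is a short gene of 1.34 kb on the minus strand of chromosome 1, at 161222292 to 161223631, in a gene-dense stretch. Its promoter anchor, at 161222766 to 161228186, also holds the promoter of TOMM40L, a gene for a mitochondrial import protein, so that loops of these genes cannot be told apart. This anchor had 6 mock loops with 21 PETs. The strongest reached the neighbouring anchor in FCER1G, the gene for an Fc receptor chain, over 6.23 kb with 5 PETs. It was the 1 loop at APOA2 that was also listed after PDS, with 3 PETs. A loop of 3 PETs reached the promoter of NR1I3, the nuclear receptor known as CAR, over 15.0 kb. All 10 mock loops of the window had an anchor on a protein-coding promoter, 6 on that of APOA2 and 4 on those of other genes. APOA2 differed in this from APOB, where 8 of 31 did. Of these 10 loops, 8 had 3 mock PETs, so that the absence of most of them from the PDS list was not detectable as a loss.

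The chromosome 11 cluster holds APOA5 (minus strand, 116789367 to 116792420), APOA4 (minus strand, 116820700 to 116823304), APOC3 (plus strand, 116829706 to 116833072) and APOA1 (minus strand, 116835751 to 116837622). The APOC3 promoter anchor at 116825049 to 116830686 was the end of both mock loops that touched a member promoter. One joined it to the APOA5 promoter over 35.3 kb with 3 PETs, and the other to a point between APOA5 and APOA4, at 116807311 to 116810522, with 4 PETs. The remaining 3 mock loops, of 3 PETs each, passed over the genes or left the cluster: from BUD13 to SIK3, which flank it, from 116812272 to 116839775, and from 116839775 to the promoter of PAFAH1B2 over 304 kb. APOA4, which is made mainly in the intestine, had no loop at its promoter in either list. APOA1 had no mock loop at its promoter, and in the PDS list its anchor at 116836856 to 116839004 was joined to the APOC3 promoter over 10.1 kb with 3 PETs. That loop was the single PDS loop of the cluster and was not in the mock list. The absence of a mock loop at the APOA1 promoter depends on the limit of 1 kb. The anchor at 116839775 to 116842181, with 2 mock loops, lies past that limit upstream of APOA1. Within 2.5 kb of a member start site the cluster had 4 mock loops and 1 PDS loop. No loop of this cluster was in both lists, and 0.355 would be expected at the same mock PETs, so these counts do not resolve any change.

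The chromosome 19 cluster holds APOE (44905791 to 44909393), APOC1 (44914247 to 44919349) and APOC2 (44946035 to 44949565), all on the plus strand. APOC1 carried most of the loops at member promoters: its anchor at 44910177 to 44915919 had 2 loops in both lists, with 8 PETs in mock-treated cells and 7 after PDS. The loop from APOC1 to the APOC1P1 anchor at 44923580 to 44928539 had 5 PETs in mock-treated cells and 4 after PDS, and it was the 1 loop of either cluster in both lists. These anchors share 614 sequences of 31 bases, 10.8% of the APOC1 anchor. The 25-letter motif shown above also stands in both. A read from 1 copy may therefore have been assigned to the other. The APOC1P1 anchor was also joined to the next downstream anchor, at 44933870 to 44937430, with 5 mock PETs and no listed loop after PDS. In the PDS list that downstream anchor was joined to APOC1 instead, with 3 PETs. The APOC1 loop to 44950824 to 44952484 had 3 PETs in mock-treated cells and was not listed after PDS. The intergenic region downstream of APOC1 is known to hold liver enhancers of these genes, which were not placed on the anchors here.
APOE and APOC2 each had a single loop at their own promoter. That of APOE was in the PDS list, from 44901688 to 44907372 to a promoter anchor of CLPTM1 over 85.0 kb with 3 PETs. That of APOC2 was in the mock list and reached another CLPTM1 promoter anchor over 10.7 kb, also with 3 PETs. CLPTM1, which encodes a membrane protein, lies downstream of APOC2. At 3 PETs neither loop can be said to be gained or lost.

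**Figure D5:**
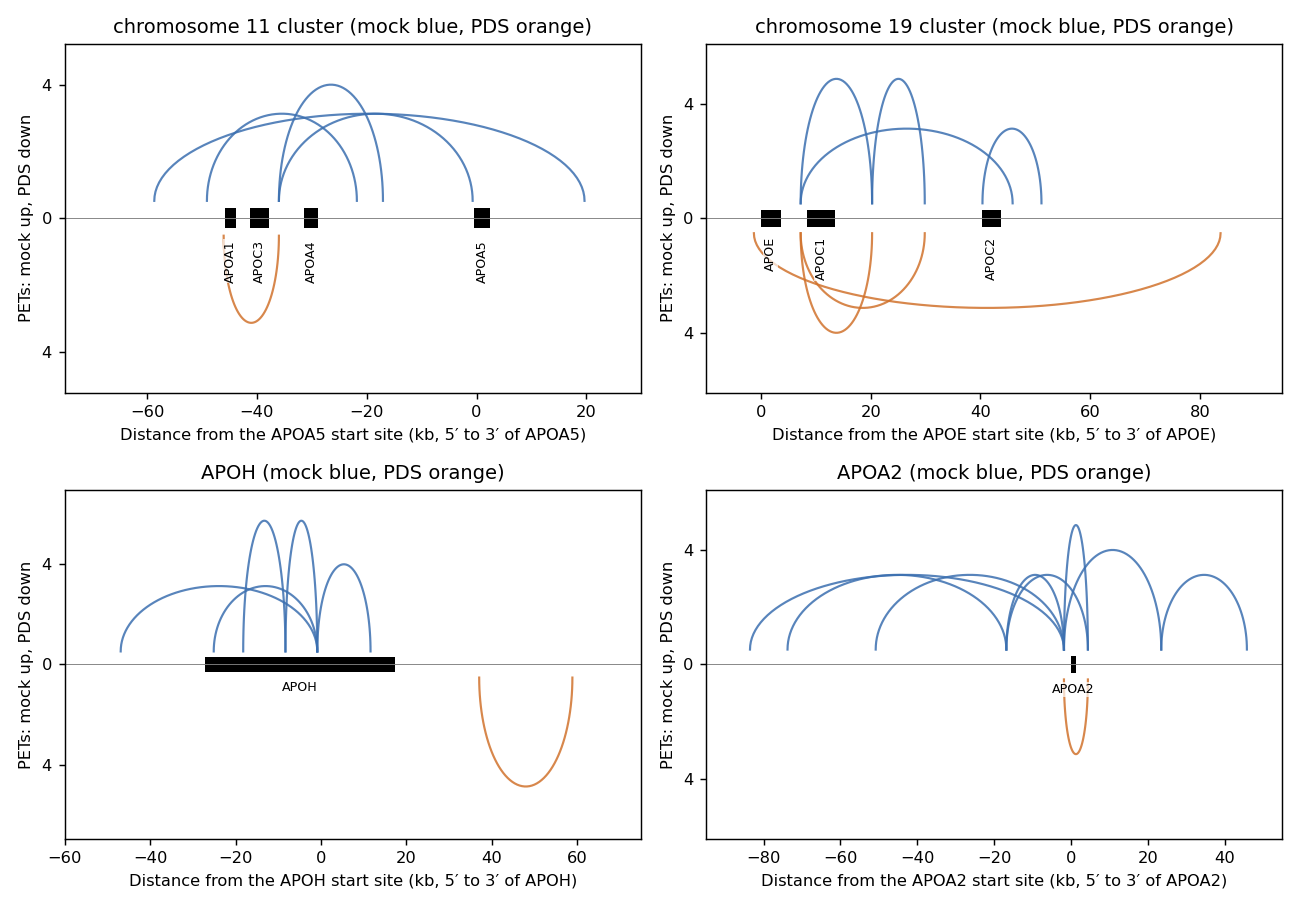
Loops at both clusters, APOH and APOA2 as arcs between anchor midpoints, with arc height giving the PETs (mock above the line in blue, PDS below in orange), the x axis the distance in kb from the start site named under each panel, and black bars the member genes. The APOH gene has arcs above the line only, and the chromosome 19 cluster has 3 arcs below the line. Loops that reach past the plotted ranges are not drawn, 1 at the chromosome 11 cluster, 3 at APOH and 2 at APOA2.

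Over all 5 loci, 8 of the 58 mock loops were also listed after PDS (13.8%, Wilson interval 7.16 to 24.9%), against 11% of all mock loops, and 7.75 would be expected at the same mock PETs. Of the 8, 6 lay at APOB, with 1 at APOA2 and 1 at the chromosome 19 cluster. The other 8 of the 16 PDS loops were not in the mock list, against 60.9% of all PDS loops. Those had 3 PETs each except a loop of 4 PETs upstream of APOB and the CEP112 loop of 5 PETs near APOH. A member promoter was in an anchor of 19 mock loops and 6 PDS loops, a protein-coding promoter of another gene only in 11 and 1, and none in 28 and 9.

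The G4 motif was in at least 1 anchor of 51 of the 58 mock loops (87.9%, Wilson interval 77.1 to 94.0%), against 75.2% of all mock loops. The odds were 2.40 times those outside the loci (95% exact interval 1.09 to 6.28), and loops that share an anchor share its motifs. The median summed width of both anchors was 15.1 kb at the loci and 15.4 kb over all mock loops, and the median G and C content was 43.9% and 43.4%. These medians pool unlike loci. The median width was 8.85 kb at both clusters together and 21.7 kb at APOB, and the median G and C content was 52.3% and 41.7%. The motif shares were not adjusted for width or for G and C content. In both clusters all 9 mock loops had a motif, at APOB 27 of 31 did, at APOA2 9 of 10 and at APOH 6 of 8. In the PDS list all 16 member loops had a motif, against 75.5% of all PDS loops, and the lower Wilson limit for 16 of 16 is 80.6%.
The mock loops also listed after PDS all had a motif, 8 of 8, and of the 50 that were not listed 43 had one (86.0%, 73.81 to 93.05%). The intervals of these shares overlap. Over all mock loops the same shares were 78.7% and 74.8%. Among single anchors, the APOE anchor held 8 motifs, the APOC1P1 anchor 6 and the APOC1, APOC2 and APOA1 anchors 5 each. The APOA2 anchor held 4, the APOC3 and APOB promoter anchors 3 each, the canonical APOH promoter anchor 2 and the APOA5 anchor 0. These anchors differ in width, from 2.15 kb for APOA1 to 7.72 kb for APOH, and the numbers of motifs are not scaled by it. At APOB the 3′ anchor of the gene held none, although 1 of the loops with 9 mock PETs ended there, and the upstream anchor at 21061969 held 3.

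Other genes of lipoprotein metabolism were counted in the same way. All 8 other apolipoprotein genes examined had mock loops, 36 in sum against 5 after PDS, and loops near neighbouring genes may be counted for both. In each of the 6 with at least 3 mock loops, the mock number was at least 2 times the PDS number. CLU, which encodes clusterin, had 9 mock loops and none after PDS, APOL1 had 7 and 1, and APOM, a component of high-density lipoprotein, had 5 and 1. APOC4, LPA and SAA4 had 4 mock loops each, and 2, 1 and 0 after PDS. Among 25 genes for receptors, lipases, assembly factors and lipid transporters, 22 had mock loops and 14 had PDS loops, 180 and 31 in sum. Over all protein-coding genes 81.1% had a mock loop and 54.3% a PDS loop. Of these, 21 had at least 3 mock loops, and all 21 passed the same limit of 2 times. LRP1, a receptor that takes up APOE-bearing remnants, had 16 and 7 loops. PLTP, a phospholipid transfer protein, had 15 and 3, and SCARB1, the receptor for high-density lipoprotein, had 14 and 1. ABCG5 and ABCG8, which together form a sterol exporter, had 13 and 1 loops and 13 and 0. MTTP, which loads lipid onto APOB, had no loop in either list, and neither had LPL or ABCG1. The same limit was passed by 91.8% of all protein-coding genes with at least 3 mock loops. APOB, with 31 mock loops, had more than any gene of these 2 lists.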

How the data were processed

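POLR2A HiChIP-seq had been performed on mock-treated and PDS-treated HepG2 cells, with 2 replicates per condition. The authors aligned reads to GRCh38 and, per the labels, used HiC-Pro 3.1.0. They deposited 1 list of loops per condition, with raw counts of PETs that are not scaled. The loop caller and the way the replicates were combined are not given in the sources used here. With pooled lists, p-values were not computed.

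Lists were read as deposited and joined on identical anchors. Gene positions came from GENCODE 44, and all 44 chromosomes or contigs of the anchors were in the reference. Promoters were 1 kb on either side of a start site. Ratios had 95% intervals made by turning the Wilson bounds of the PDS fraction into a ratio, and ratios of ratios had exact conditional intervals. Scripts were tested on simulated data. Python 3.11.15, numpy 2.4.6, pandas 2.3.3, scipy 1.17.1 and matplotlib 3.10.9 were used.

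The members and lists were chosen with earlier results of these data known. The genes named were all members, protein-coding genes with a promoter at the 3 loops with most mock or PDS PETs of each locus (ties included), and from each list those with the most mock loops. TDRD15, LDAH and PRKCA, and the gene bodies and zero counts named, were added after their values were seen. The alternatives tried concerned the window, the PET minimum, the anchor rule, the matching of loops and the motif. Some genes that meet the rule for named genes are not reported here.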

Additional observations from a re-analysis of the deposited data

How the results depend on the processing

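The 9 results were recomputed under other settings, which gave 94 values, 11 of them from settings chosen after seeing the data. As the pooled lists hold no values per replicate, a value was compared with the 95% interval of the result itself, and 81 of the 94 stayed inside it. The settings reuse many of the same loops and several intervals are very wide, so staying inside does not show that a result is stable. With only anchors within 1 kb of a member start site, the chromosome 11 cluster over the single genes moved from 0.817 to 3.5. That value is still inside 0.0160 to 8.39. At a minimum of 5 PETs, the PET ratio of all member loci was 0.176, the share of mock loops also listed after PDS 6.25%, the ratio at the chromosome 19 cluster 0 and its ratio over the single genes 0. At a minimum of 4 PETs, the ratio at the chromosome 11 cluster was 0 and its ratio over the single genes 0, and at 5 PETs this cluster had no mock loop and gave no value. Divided by the totals of the lists, the ratios were 0.976 by loops and 0.970 by PETs for all member loci and 0.866 for the single genes. Without APOB the single genes had a ratio of 0.111. With anchors extended by 5 kb, 43.1% of mock loops at the member loci had a match after PDS, against 32.5% of all mock loops. With spacers of up to 12 bases 98.3% of mock loops at the member loci held a G4 motif, against 87.7% of all mock loops, and counting only motifs within 1 kb of a member start site, 25.9% of those at the member loci did. With 50 kb on either side, the ratio of the chromosome 19 cluster over the single genes was 4.06 (1.05 to 15.3), an interval that leaves out 1. The fits that leave out each replicate in turn were not run. No paired analysis was possible because the lists pool the replicates. Loops with 3 PETs, 31 of the 58 mock loops, set the limit on what can be detected.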
